A study of Drosophila melanogaster with 12 samples.

Results

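Whole adult flies of Drosophila melanogaster were sequenced in 3 replicate sets, and the sets are compared here with one another. All 12 of the 12 libraries of the series were used. A library was placed in set 3, set 2 or set 1 by the replicate number in its title, which gave 4 libraries per set, 1 from each group. The groups were maternal (AKHR +/- flies with an obese maternal parent), paternal (AKHR +/- flies with an obese paternal parent), het (AKHR +/- flies with no obese parent) and wildtype. All were Canton S flies aged 10-11 days, flash frozen whole, and polyA RNA was sequenced from whole fly lysate. AKHR is the receptor for adipokinetic hormone, and the labels do not name the mutant allele, the sex, the number of flies per library, or the day, food or vial of a set. The series' design text says that replicates were independent and that each experimental replicate gave 1 set of samples. That the number in a title marks that set is read from the labels and is not stated in them. The p-values therefore measure the spread between these libraries, and day, food, handling and library preparation cannot be told apart between sets.

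The gut of the adult fly secretes amylases, maltases, proteases and lipases whose transcripts are known to follow diet. The fat body, the fly's counterpart of liver and adipose tissue, makes storage proteins and, when the Toll or Imd pathway is engaged by microbes, antimicrobial peptides. Cytochrome P450 enzymes and glutathione S-transferases of gut, fat body and Malpighian tubule break down plant compounds, hormones and drugs. Haemocytes, the fly's blood cells, patrol these organs, take up microbes and lay down basement membrane.

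Levels are given as CPM, a gene's share of the listed reads of a library, scaled between libraries by the trimmed mean of M values (TMM). The values of a set always follow the group order maternal, paternal, het and wildtype. AkhR, listed in the tables as GRHR (FBgn0025595, dm3, 2L, 6711286 to 6716186, minus strand), was measured first, since all groups but wildtype carry 1 mutant copy. It had 80.4, 80.7, 81.1 and 84.8 CPM in set 3, 75, 73.7, 71.6 and 77.3 CPM in set 2, and 84.0, 80.8, 84.3 and 84.7 CPM in set 1. The wildtype library was the highest of its set in all 3 sets, while the groups overlapped across sets, and all 4 libraries of set 2 lay below every library of sets 3 and 1. All comparisons used edgeR's quasi-likelihood test, with p-values adjusted by the Benjamini-Hochberg method over all genes tested. AkhR fell by 0.17 on the log2 scale in set 2 against set 1 (adjusted p 0.0345). The call was lost without paternal or het replicate 3, any library of set 2, or paternal or het replicate 1. Between groups AkhR had an adjusted p of 0.69.

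Libraries held 17212029 to 21370713 listed reads. Mitochondrially encoded genes took 0.588 to 0.874% of reads, and genes of the male accessory gland took 1.39 to 1.73%. Yolk protein gene Yp1 stood at 1.85 to 3.93 CPM, and roX1, a noncoding RNA of male dosage compensation, at 305 to 389 CPM. Cytosolic ribosomal protein genes took 6.47% of the reads of maternal replicate 1, against 5.55 to 5.93% in the other 11 libraries. Results that rest on maternal replicate 1 are given with and without it.

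In the fit of all 12 libraries, sets 3 and 1 differed in the most genes and sets 2 and 1 in the fewest. Nearly all differences were small. Of 12762 genes tested, 751 (5.88%) passed an adjusted p of 0.05 in set 3 against set 1, of which 397 were higher and 354 lower in set 3. In set 3 against set 2, 217 genes (1.7%) passed, with 110 higher and 107 lower. In set 2 against set 1, 100 genes (0.784%) passed, with 79 higher (0.619% of all genes) and 21 lower. The median absolute log2 difference of the passing genes was 0.19, 0.24 and 0.27 in these comparisons, and 3, 2 and 0 genes exceeded 1. The difference had the same direction in all 4 groups for 737 of 751, 214 of 217 and 99 of 100 genes. A test with group as a block favours genes that differ alike in the groups. This agreement within the same libraries is therefore no separate support for the calls. All 4 libraries of set 3 lay above all 4 of the other set for 5.5% of genes against set 2 and 5.55% against set 1, and below them for 4.29% and 4.89%. All of set 2 lay above all of set 1 for 2.59% of genes and below for 1.6%. The 3 comparisons share libraries and are not independent of one another.

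The number of genes called depended on single libraries. For set 3 against set 1 the count was 233, 308, 304 and 388 without maternal, paternal, het and wildtype replicate 3. It was 489 without het replicate 2, 314 without paternal replicate 1, 211 without het replicate 1 and 1280 without wildtype replicate 1. For set 3 against set 2 it was 137 without maternal replicate 3, 108 without het replicate 3, 108 without paternal replicate 2 and 131 without het replicate 2, but leaving out maternal replicate 1 gave 841 and leaving out wildtype replicate 1 gave 350. For set 2 against set 1 it was 64 without paternal replicate 3, 64 without het replicate 3, 62 without maternal replicate 2, 43 without paternal replicate 2 and 18 without het replicate 2. It was 33 and 37 in that comparison without paternal and het replicate 1, against 176 without maternal replicate 1 and 200 without wildtype replicate 1. Without maternal replicate 1, set 3 against set 1 gave 684 genes, fewer than the 841 of set 3 against set 2. Fits of only 2 sets gave 850 genes in set 3 against set 2 and 313 in set 3 against set 1. Which sets differed in the most genes thus changed with the libraries fitted.

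A test of all 3 sets together called 551 genes (4.32%), and a test of the 4 groups in the same fit called 201 (1.57%), with 39 genes in both. Without 1 library the count over sets was 292, 289, 246 and 328 when maternal, paternal, het or wildtype replicate 3 was left out, and 310 without het replicate 2. It was 1016 without maternal replicate 1, 284 without paternal replicate 1, 240 without het replicate 1 and 1021 without wildtype replicate 1. Set 3 had the highest mean in 253 of the 551 genes (45.9%), against 35.4% of all genes tested. It had the lowest mean in 219 (39.7%), which was near the 38.4% of all genes. Set 1 had the lowest mean in 242 (43.9%), against 35.2% of all genes. Set 2 lay in the middle in 320 (58.1%), against 43.4% of all genes tested. The 551 genes were spread over the chromosome arms, with 20.7% on 2L, 20.1% on 2R, 21.1% on 3L, 24% on 3R and 13.8% on X. As shares of the genes tested on each arm these were 4.66, 4.29, 4.78, 4.22 and 3.82%. Of the 201 genes called between groups, 56.2% lay on 2L, the arm that carries AkhR. That was 4.62% of the genes tested on 2L, against 1.12% on 2R, 0.825% on 3L, 0.799% on 3R, 1.19% on 4 and 0.503% on X. The reason was not tested.

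In a principal component analysis of log2 CPM, the first component held 18.2% of the variance and the second 15%, and 57.4% and 44.9% of these lay between groups. The third component held 11.2% of the variance, and 67.7% of it lay between sets. For a median gene 22.0% of the variance lay between sets and 28.0% between groups, while the degrees of freedom alone would give 18.2% and 27.3%. Deviations from the group mean had a mean Pearson r across genes of 0.123 within a set (18 pairs, -0.0272 to 0.222) and of -0.0614 between libraries of different sets and groups. The 3 deviations of a group sum to 0, so the between-set value is tied to the within-set value and is no separate observation. Of the 12 libraries, 11 correlated best with a library of their own set. Libraries of the same group were not candidates, and candidates from other sets outnumbered those from a library's own set. The count that would arise by chance was not computed.

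**Figure D1:**
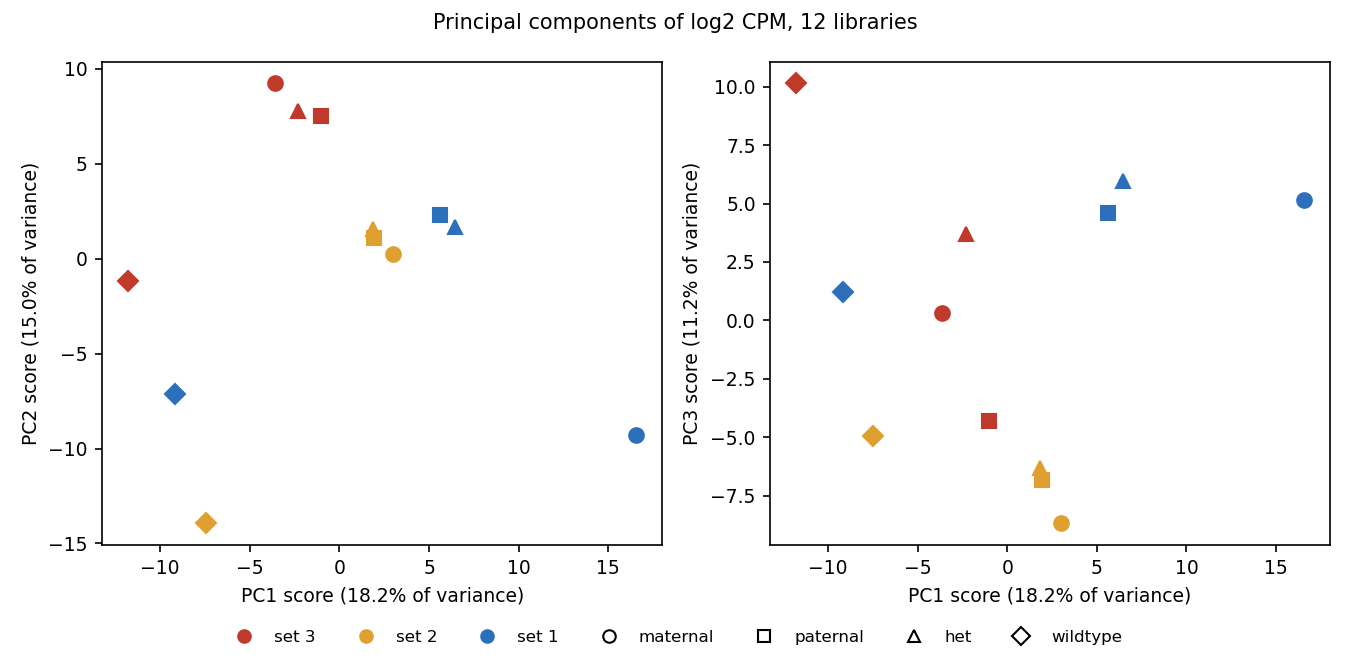
Principal components of log2 CPM over the genes tested, 1 point per library, coloured by set (set 3, set 2, set 1) and shaped by group. Maternal replicate 1 lies far from the other libraries on the first component, and the 4 libraries of set 2 have the lowest scores on the third, which holds 11.2% of the variance, while those of sets 3 and 1 overlap there.

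Lists for 52 tissue, immune, digestive and metabolic programmes were then read against the shares over all genes, 2 of them drawn up after values were seen. In set 3 against set 2, 0.862% of all genes passed as higher and 0.838% as lower. These shares were 3.11% and 2.77% in set 3 against set 1, and 0.619% and 0.165% in set 2 against set 1. The amylases and maltases had the highest share of the 52 lists, with 11 of 14 genes called in the test of all 3 sets together. The same test called 4.32% of all genes. Not in order of their shares, haemocyte and basement membrane genes had 5 of 14 and muscle contractile genes 6 of 29. P450 enzymes had 9 of 79 (11.4%), and glutathione S-transferases and UDP-glycosyltransferases 7 of 64 (10.9%). Lists with larger shares than these last included acid alpha-mannosidases (66.7%), Niemann-Pick type C genes (33.3%) and fat body proteins (30%). Others were trehalose and glycogen genes (25%), lysozymes and gut lipases (25%), and gut carboxypeptidases and aspartic proteases (22.2%). No antimicrobial peptide of 17 passed. That list had the largest residual spread of the 52, at a median SD of 0.555 on the log2 scale against 0.0841 over all genes. A large residual spread makes a call harder, so 0 calls do not show that these genes were alike between sets. For a median member 39.0% of the variance lay between sets, against 22.0% for a median gene. In whole flies, fewer cells of a type and less RNA per cell cannot be told apart in any of these lists.

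**Figure D2:**
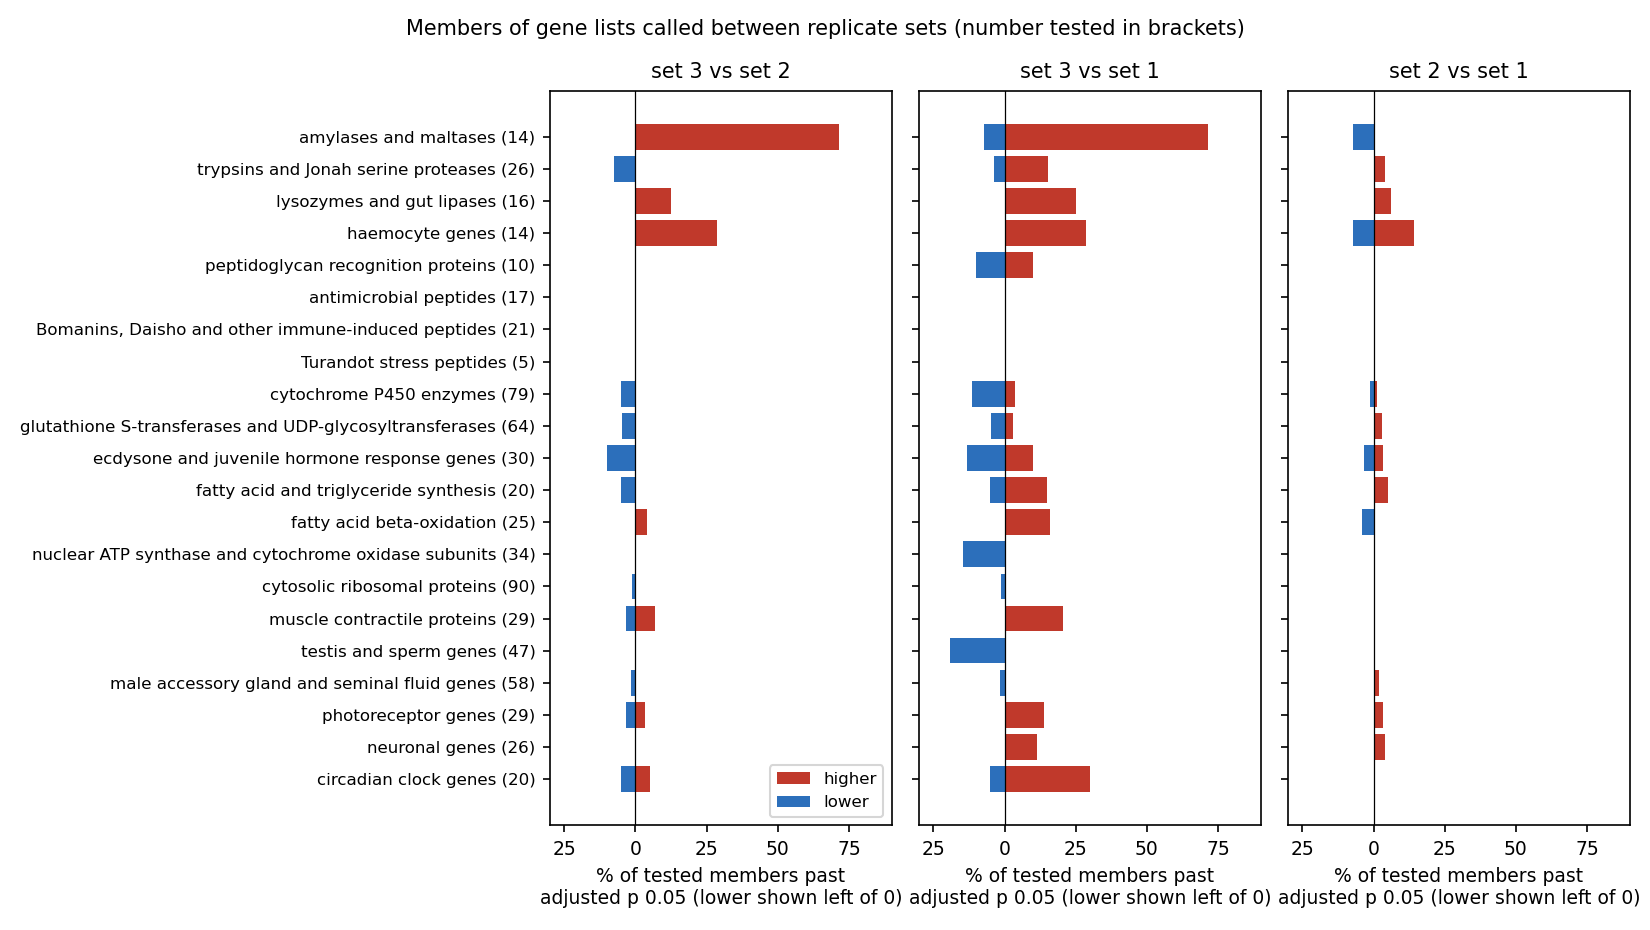
Percent of the tested members of gene lists (number tested in brackets) that passed an adjusted p of 0.05 in set 3 against set 2, set 3 against set 1 and set 2 against set 1, with higher members right of 0 and lower members left of it. The amylases and maltases have the highest bars, with 10 of 14 members higher in set 3 than in set 2 and 10 of 14 higher in set 3 than in set 1.

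Most amylase and maltase transcripts were higher in set 3 than in set 2 and than in set 1. Of 14 such genes, 10 rose and 0 fell in set 3 against set 2, and 10 rose and 1 fell in set 3 against set 1, where the shares over all genes were 0.862% and 3.11% higher. In set 2 against set 1, 0 rose and 1 fell. The median log2 difference of the list was 0.23, 0.23 and -0.03, against -0.01, -0.00 and 0.00 over all genes. For a median member of the list 84.4% of the variance lay between sets. Their summed level was 12637 ± 434 CPM in set 3, 10814 ± 418 CPM in set 2 and 11216 ± 376 CPM in set 1 (SD, n = 4 each), and every library of set 3 was above every library of the others. Without any 1 library the count called was 9 to 10 in set 3 against set 2 and 10 to 13 in set 3 against set 1, where it was 6 without the het libraries.

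Amyrel, an alpha-amylase relative expressed in the gut (FBgn0020506, 2R, 12538600 to 12540204, minus strand), had the largest rise of the list. It had 49.1, 47.8, 50.5 and 47.7 CPM in set 3, 28.2, 25.2, 28.7 and 32.3 CPM in set 2, and 32.7, 28.2, 23.0 and 33.0 CPM in set 1. The 4 libraries of set 3 lay close together and above all 8 others, while sets 2 and 1 overlapped. The log2 difference was 0.77 (SE 0.0832, adjusted p 0.000228) for set 3 against set 2 and 0.75 (SE 0.0831, adjusted p 0.000305) for set 3 against set 1 in edgeR's quasi-likelihood test. Both calls held without any 1 library.

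Mal-A8, a maltase of the cluster of alpha-glucosidase genes on 2R (4359488 to 4361466, plus strand), had 722, 698, 703 and 724 CPM in set 3, 540, 525, 569 and 601 CPM in set 2, and 594, 578, 557 and 635 CPM in set 1. All of set 3 lay above the rest, and sets 2 and 1 overlapped. The difference was 0.35 for set 3 against set 2 (adjusted p 1.07e-05) and 0.27 for set 3 against set 1 (adjusted p 0.000217). Mal-A8 overlaps mtt in the annotation and the counting strand is not stated, so its reads may include some of that gene's. Mal-A4 of the same cluster overlaps no listed gene. It had 461, 416, 406 and 432 CPM in set 3, 324, 348, 338 and 389 CPM in set 2, and 332, 333, 323 and 357 CPM in set 1. The log2 differences were 0.29 (adjusted p 0.000559) against set 2 and 0.35 (adjusted p 0.000116) against set 1, again with no overlap between set 3 and the others. Mal-A3 was 0.27 higher in set 3 than in set 1 (adjusted p 0.000158).

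Mal-B1, another maltase, on 2L (11847226 to 11849169, plus strand), had a different value in each set. It had 49.8, 40.2, 46.5 and 45.1 CPM in set 3, 30.4, 29.2, 30.1 and 35.0 CPM in set 2, and 39.2, 34.5, 37.2 and 38.1 CPM in set 1. Set 3 lay above both other sets, and set 2 lay below set 1 but for its wildtype library. The log2 difference was 0.54 for set 3 against set 2 (adjusted p 6.43e-06), 0.28 for set 3 against set 1 (adjusted p 0.00434) and -0.26 for set 2 against set 1 (adjusted p 0.0309). The last call was lost without maternal, paternal or het replicate 2, or without paternal or het replicate 1. Mal-B1 overlaps Pde1c.

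The gene tobi, an alpha-glucosidase known as a target of brain insulin and AKH signals, had 2350.5, 2101.6, 2154.3 and 2244.9 CPM in set 3, 1578.5, 1656.8, 1727.8 and 1846.3 CPM in set 2, and 1832.3, 1830.4, 1850.4 and 2002.5 CPM in set 1. Every library of set 3 was above every other library, and the wildtype libraries of sets 2 and 1 were the highest of their sets. The difference was 0.38 for set 3 against set 2 (adjusted p 1.23e-05) and 0.24 for set 3 against set 1 (adjusted p 0.00196). It overlaps rha. The deposited FPKM values, which are per transcript length, averaged 922 for tobi, 347 for Mal-A8, 209 for Mal-A4, 22.9 for Amyrel and 20.9 for Mal-B1, so the members that moved span abundant and scarce transcripts. Mal-B2, chosen after its values were seen, was the member that fell, by 0.19 in set 3 against set 1 (adjusted p 0.0126). The near-identical copies Amy-d and Amy-p, which may share reads, did not pass in any comparison.

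**Figure D3:**
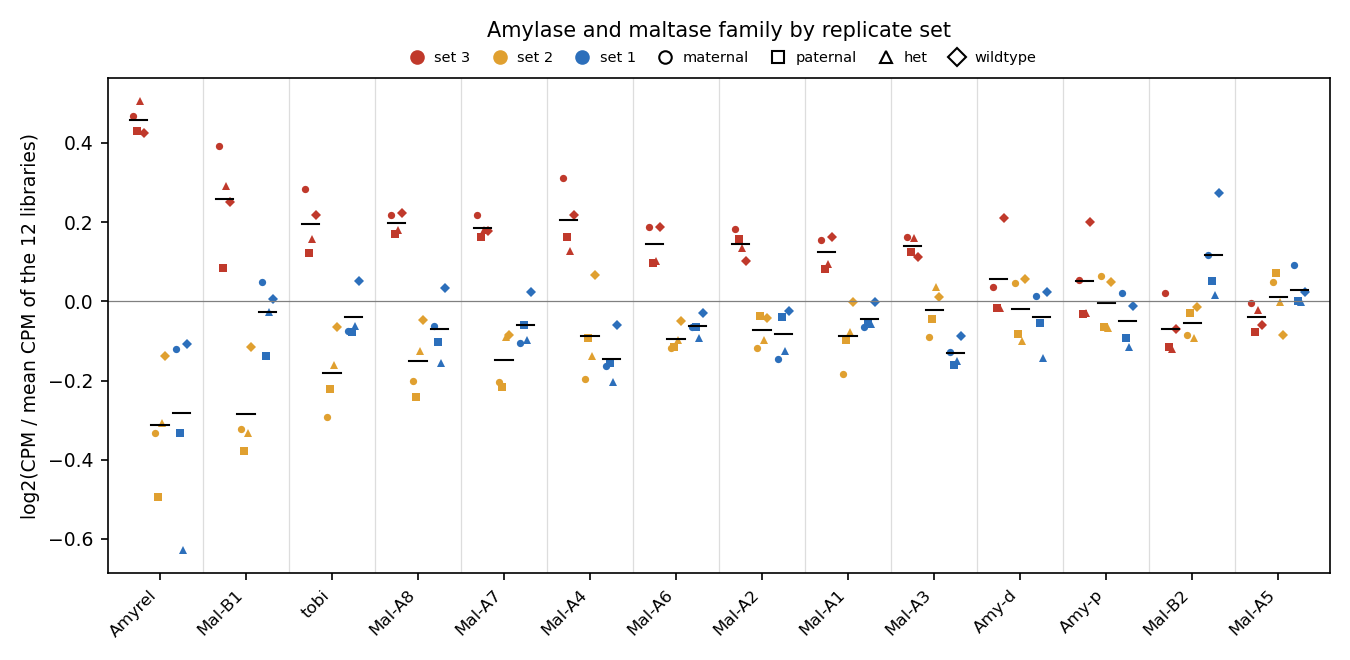
Level of the 14 amylase and maltase genes in each of the 12 libraries, as log2 of CPM over the gene's mean CPM, with set 3, set 2 and set 1 from left to right, symbols for groups and lines at the set means. For Amyrel the 4 libraries of set 3 (47.7 to 50.5 CPM) sit above 0 and the 8 others (23.0 to 33.0 CPM) below it.

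A list of 9 Niemann-Pick type C genes, drawn up after the values were seen, had 2 members higher and 1 lower in set 3 against set 2, and 2 higher and 1 lower in set 3 against set 1, with median log2 differences of -0.03 and 0.00. Npc2e, a small sterol-binding protein (FBgn0051410, 3R, 5879120 to 5879982, plus strand), had 7.65, 5.60, 5.65 and 9.09 CPM in set 3, 2.44, 3.56, 2.55 and 3.5 CPM in set 2, and 3.53, 3.79, 4.57 and 4.62 CPM in set 1. Its rise of 1.22 in set 3 against set 2 (SE 0.143, adjusted p 7.96e-05) was the largest of that comparison among genes of at least 1 CPM called the same way in all groups, and against set 1 it was 0.75 (adjusted p 0.00433). Npc1b, the transporter needed for uptake of dietary sterol in the midgut (X, 20805980 to 20810408, plus strand), had 45.4, 43.8, 46.6 and 50.7 CPM in set 3, 33.1, 33.3, 34.8 and 27.0 CPM in set 2, and 30.1, 33.8, 33.9 and 32.6 CPM in set 1. Its log2 difference was 0.54 (adjusted p 0.000342) and 0.52 (adjusted p 0.000476). CG31148, a gene outside that list now named Gba1a, a glucocerebrosidase that splits glucosylceramide, had 91.2, 82.8, 91.0 and 90.7 CPM in set 3, 63.0, 59.5, 65.4 and 68.0 CPM in set 2, and 65.7, 62.6, 64.3 and 71.2 CPM in set 1. It was 0.47 higher in set 3 than in set 2 (adjusted p 2.2e-06) and 0.43 higher than in set 1 (adjusted p 3.57e-06). In all 3 genes set 3 lay wholly above the other sets, and their calls in set 3 against set 2 held without any 1 library.

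The acid alpha-mannosidases of a cluster on 2L followed another order, with set 1 low. These lysosomal enzymes trim mannose from glycoproteins, and a list of 6 was likewise drawn up after the values were seen. Besides the cluster (CG9463, CG9465, CG9466 and CG9468) the list holds CG5322 and CG6206, which lie elsewhere on 2L. Those genes differed by 0.07 and 0.01 on the log2 scale in set 2 against set 1, and neither passed in any comparison. In set 2 against set 1, 3 members rose and 0 fell, and in set 3 against set 1, 4 rose and 0 fell, while 0 passed in set 3 against set 2 by edgeR's quasi-likelihood test, DESeq2 or limma-trend, with 1 at an unadjusted p under 0.05. CG9468, now LManVI, had 552, 615, 604 and 632 CPM in set 3, 671, 536, 616 and 688 CPM in set 2, and 428, 454, 430 and 525 CPM in set 1. Set 1 lay below all other libraries. The difference was 0.45 for set 2 against set 1 (adjusted p 0.0106) and 0.39 for set 3 against set 1 (adjusted p 0.00799). CG9463, now LManIII, was 0.64 higher in set 2 (adjusted p 0.0417) and 0.69 higher in set 3 (adjusted p 0.0114) than in set 1. Its call in set 2 was lost without het replicate 3, maternal, het or wildtype replicate 2, or any library of set 1, and that of CG9468 without het replicate 2 or maternal replicate 1. Without maternal replicate 1 no member passed in either comparison, and the count in set 2 against set 1 was also 0 without het replicate 2 and 1 without het replicate 3, without maternal or wildtype replicate 2, and without het or wildtype replicate 1. Against set 1, set 3 then had 2 members called without het replicate 3 and 2 without het replicate 1.

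Of 26 trypsins and Jonah serine proteases, 0 rose and 2 fell in set 3 against set 2, 4 rose and 1 fell in set 3 against set 1, and 1 rose in set 2 against set 1. Between sets 3 and 1 the count was 1 without paternal replicate 3, 2 without het replicate 3, paternal replicate 1 or het replicate 1, and 3 without paternal replicate 2. The count in set 3 against set 2 was 1 without paternal or het replicate 3 or paternal, het or wildtype replicate 2. For set 2 against set 1 it was 0 without paternal or het replicate 2 or paternal or het replicate 1, 2 without maternal or wildtype replicate 3 or wildtype replicate 2, and 7 without maternal replicate 1. The trypsin thetaTry had 75.5, 77.0, 72.4 and 86.2 CPM in set 3, 78.2, 77.3, 73.2 and 83.9 CPM in set 2, and 69.8, 67.1, 62.2 and 73.7 CPM in set 1. Within every group set 1 was the lowest, although libraries of different groups overlapped, and the gene was 0.19 higher in set 3 than in set 1 (adjusted p 0.00614). Jon74E went the other way. It had 380, 340, 375 and 381 CPM in set 3, 393, 420, 402 and 418 CPM in set 2, and 421, 410, 415 and 437 CPM in set 1. It was 0.19 lower in set 3 than in set 1 (adjusted p 0.00709), a call that was lost without paternal replicate 3, its lowest library.

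Of 9 gut carboxypeptidases and aspartic proteases, 1 fell in set 3 against set 2, 1 rose in set 3 against set 1 and 2 rose in set 2 against set 1. CG8562, a zinc carboxypeptidase, separated all 3 sets. It had 69.7, 73.7, 74.6 and 71.7 CPM in set 3, 80.8, 82.8, 83.1 and 82.1 CPM in set 2, and 60.8, 65.1, 64.7 and 58.0 CPM in set 1. The sets did not overlap, and set 2 was highest. The difference was 0.40 for set 2 against set 1 (adjusted p 2.76e-05), 0.22 for set 3 against set 1 (adjusted p 0.00288) and -0.18 for set 3 against set 2 (adjusted p 0.0126). The last of these was lost without maternal, paternal or het replicate 3 and without wildtype replicate 2.

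Among 16 lysozymes and gut lipases, 2 rose in set 3 against set 2, 4 in set 3 against set 1 and 1 in set 2 against set 1, and 0 fell. CG8093, a lipase, had 162, 167, 177 and 170 CPM in set 3, 149, 144, 157 and 151 CPM in set 2, and 148, 145, 141 and 149 CPM in set 1, so set 3 lay above the rest. It was 0.21 higher in set 3 than in set 1 (adjusted p 0.00302) in every fit without 1 library. CG31091, of the same lipase family, had 20.8, 24.4, 26.1 and 25.3 CPM in set 3, 32.8, 24.6, 31.3 and 39.2 CPM in set 2, and 16, 18.4, 15.8 and 19.4 CPM in set 1. Its rise of 0.88 in set 2 against set 1 (SE 0.105, adjusted p 0.00385) was the largest of that comparison under the same rule, and it was lost without maternal replicate 1. Lipases and lysozymes called in set 3 against set 1 numbered 1 without maternal or paternal replicate 3 or het replicate 1, and 2 without het replicate 3, het replicate 2, paternal replicate 1 or wildtype replicate 1. Against set 2 it was 0 without paternal, het or wildtype replicate 3 and without maternal or wildtype replicate 2, and 1 without paternal or het replicate 2. Set 2 against set 1 had 2 members called without maternal or wildtype replicate 1 and 3 without wildtype replicate 2.

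The antimicrobial peptides varied widely between libraries, and none of the 17 tested passed in any comparison of sets. The count at an unadjusted p under 0.05 was 9 in set 3 against set 2, 0 in set 3 against set 1 and 5 in set 2 against set 1 in edgeR's quasi-likelihood test. DESeq2 called 2, 0 and 2 of them and limma-trend 0, 0 and 0. The median log2 difference of the list was 0.82, -0.03 and -0.71, on a scale where the median over all genes stayed within 0.01 of 0. Their summed level was 885, 652, 1039 and 1172 CPM in set 3, 594, 719, 668 and 651 CPM in set 2, and 837, 806, 822 and 763 CPM in set 1. Set 2 lay below set 1 in all 4 groups, and set 3 held both the highest library, wildtype, and, in its paternal library, one below all of set 1.

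Dpt, Mtk and AttC, named here after their values were seen, spread widely among the libraries of set 3. Dpt, the antibacterial peptide diptericin (now DptA, 2R, 14753270 to 14753765, plus strand), had 34.5, 8.43, 63.7 and 96.4 CPM in set 3, 5.87, 16, 9.04 and 7.64 CPM in set 2, and 12.3, 17.5, 17.6 and 16 CPM in set 1. In set 3 the maternal, het and wildtype libraries were above all others and the paternal library was among the lowest. The log2 difference was 2.26 (SE 0.707, adjusted p 0.226) for set 3 against set 2, 1.52 (SE 0.654, adjusted p 0.247) for set 3 against set 1 and -0.74 (adjusted p 0.796) for set 2 against set 1. Mtk, the antifungal peptide metchnikowin, which overlaps CG43729, had 40.8, 11.4, 57.9 and 51.6 CPM in set 3, 8.71, 13.5, 14.7 and 15.3 CPM in set 2, and 13.4, 25.8, 25.3 and 18.7 CPM in set 1. AttC, an attacin against Gram-negative bacteria, had 82.0, 21.0, 105 and 128 CPM in set 3, 27.9, 30.8, 38.7 and 30 CPM in set 2, and 48.7, 64.3, 59.0 and 60.8 CPM in set 1. In these genes the paternal library of set 3 lay below set 1 while the other 3 libraries of set 3 were above it.

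Calls of these peptides depended on which libraries were fitted and on the tool. Without paternal replicate 3, 4 passed in set 3 against set 2 and 3 in set 3 against set 1. Mtk was then 2.03 (adjusted p 1.73e-07) and 1.36 (adjusted p 8.15e-06) higher in set 3 than in sets 2 and 1, AttC 1.73 (adjusted p 7.23e-05) and 0.86 (adjusted p 0.00386), and Dpt 2.89 (adjusted p 0.0189) and 2.15 (adjusted p 0.0278). For set 2 against set 1, 3 passed without it, all lower, with AttC at -0.86 (adjusted p 0.00659), and 2 passed without wildtype replicate 1. A fit of only sets 2 and 1 called 7, all lower in set 2. Without maternal replicate 1, 2 passed in set 3 against set 2 and 1 in set 3 against set 1, each of them a drosomycin relative. Those relatives, dro4 and dro5, varied over a narrower range. The gene dro4 had 260, 249, 243 and 248 CPM in set 3, 211, 243, 225 and 228 CPM in set 2, and 259, 237, 229 and 211 CPM in set 1. Near-identical copies such as AttA and AttB may share reads and are not described singly.

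**Figure D4:**
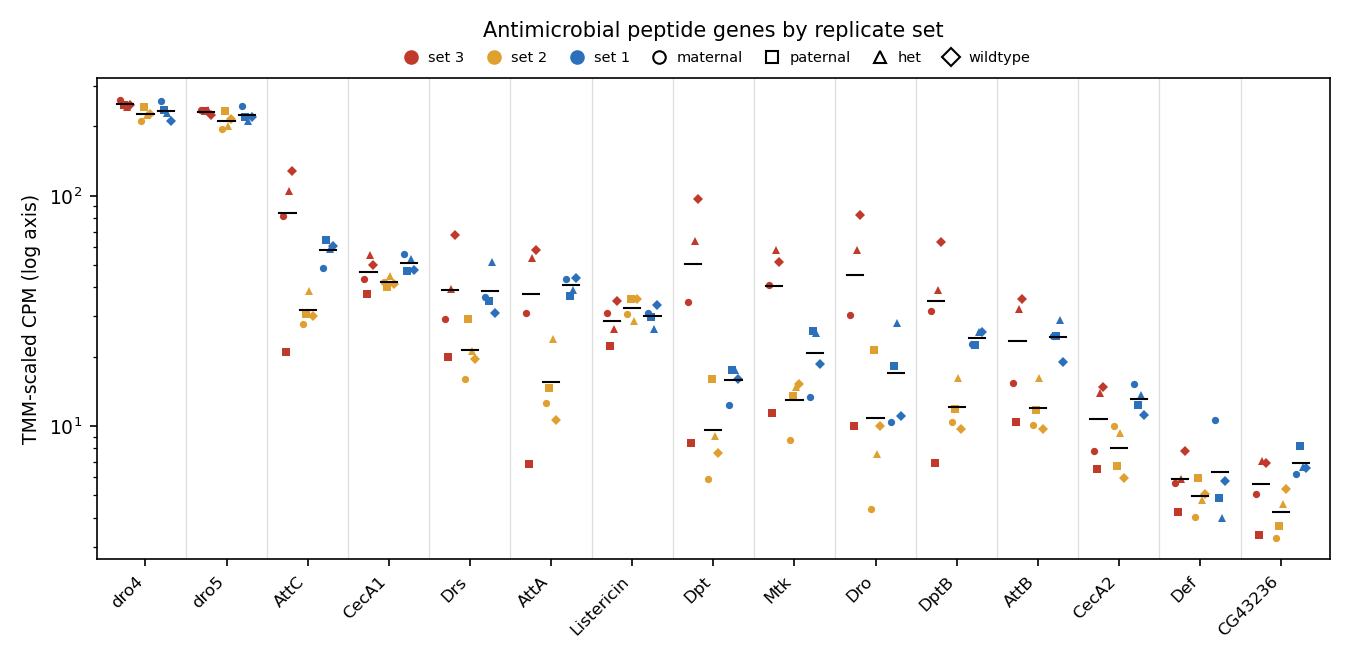
Level of antimicrobial peptide genes in each of the 12 libraries, in TMM-scaled CPM on a log axis, with set 3, set 2 and set 1 from left to right, symbols for groups and lines at the set means. For Dpt the maternal, het and wildtype libraries of set 3 sit between 34.5 and 96.4 CPM, the paternal library at 8.43 CPM, and the libraries of sets 2 and 1 between 5.87 and 17.6 CPM.

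Of 21 Bomanins, Daisho and other Toll-induced peptides tested, 0 passed in any comparison in edgeR's quasi-likelihood test, with 6, 2 and 8 at an unadjusted p under 0.05 in set 3 against set 2, set 3 against set 1 and set 2 against set 1. DESeq2 called 1, 0 and 1, and limma-trend 0. IM4, now Dso1, an antifungal Daisho peptide, had 286, 261, 298 and 353 CPM in set 3, 242, 292, 280 and 315 CPM in set 2, and 356, 308, 357 and 336 CPM in set 1, and the sets overlapped. CG6639, a serine protease homolog now named SPH93 and chosen after its values were seen, was on or off by library. It had 0.400, 0.463, 0.768 and 31.0 CPM in set 3, 0.498, 0.583, 0.699 and 0.645 CPM in set 2, and 0.512, 20.2, 22.5 and 0.719 CPM in set 1. The 3 libraries above 20 CPM came from 3 groups and from sets 3 and 1.

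Of 10 peptidoglycan recognition protein genes, 1 rose and 1 fell in set 3 against set 1 and 0 passed in the other comparisons by edgeR's quasi-likelihood test, DESeq2 or limma-trend, with 4 and 3 at an unadjusted p under 0.05 in set 3 against set 2 and set 2 against set 1. PGRP-SC2, an amidase that degrades peptidoglycan in the gut, had 55.7, 47.9, 49.8 and 51.2 CPM in set 3, 42.8, 44.1, 46.9 and 45.1 CPM in set 2, and 42.6, 43.7, 38.9 and 37.5 CPM in set 1. Set 3 lay above both other sets, and the difference from set 1 was 0.33 (adjusted p 0.00243) and held without any 1 library. Of 23 Toll and Imd pathway components, 12 antiviral genes, 15 JAK-STAT and JNK damage genes and 5 Turandot stress peptides, 0 passed in any comparison of sets. At an unadjusted p under 0.05 these lists had 4, 2, 3 and 0 members in set 3 against set 2, 1, 2, 2 and 0 in set 3 against set 1, and 3, 2, 1 and 0 in set 2 against set 1. DESeq2 called 1 of the JAK-STAT and JNK genes in set 3 against set 2, and limma-trend 0 of any. TotA, a secreted stress peptide, had 438, 575, 525 and 411 CPM in set 3, 622, 556, 512 and 366 CPM in set 2, and 887, 435, 350 and 507 CPM in set 1, so the libraries of set 1 spanned more than the means of the sets.

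Of 14 haemocyte and basement membrane genes, 4 rose and 0 fell in set 3 against set 2, 4 rose and 0 fell in set 3 against set 1, and 2 rose and 1 fell in set 2 against set 1. The 4 that rose against set 1 were Cg25C, vkg, Ppn and Pxn, which code for matrix proteins or, for Pxn, a matrix peroxidase. Hml, hemolectin, a clotting protein that marks haemocytes (3L, 13839154 to 13853101, plus strand), had 192, 184, 188 and 182 CPM in set 3, 139, 152, 154 and 144 CPM in set 2, and 168, 183, 188 and 174 CPM in set 1. All of set 2 lay below all other libraries. Hml was 0.34 higher in set 3 than in set 2 (adjusted p 1.99e-05) and 0.28 lower in set 2 than in set 1 (log2 difference -0.28, adjusted p 0.00114), and both calls held without any 1 library. Against set 1 the difference of set 3 was 0.06 (adjusted p 0.32). Other haemocyte markers, named here after their values were seen, did not pass in any comparison of sets. In set 3 against sets 2 and 1 the log2 difference of eater, a phagocytosis receptor, was -0.06 and -0.28, of nimC1, another phagocytosis receptor, 0.08 and 0.13, of the scavenger receptor Sr-CI 0.09 and -0.02, and of atilla, a lamellocyte marker, -0.07 and -0.04.

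The collagen IV genes gave another order. Cg25C, now Col4a1, had 199, 177, 180 and 169 CPM in set 3, 166, 167, 161 and 146 CPM in set 2, and 145, 144, 128 and 142 CPM in set 1, and its partner vkg had 125, 117, 122 and 108 CPM in set 3, 108, 111, 101 and 97.0 CPM in set 2, and 91.4, 102, 83.2 and 86.7 CPM in set 1. Both were highest in set 3 and lowest in set 1 in every group. The difference of set 3 from set 1 was 0.37 for Cg25C (adjusted p 9.6e-05) and 0.38 for vkg (adjusted p 9.6e-05). Ppn, papilin, a further basement membrane protein, had 329, 323, 318 and 311 CPM in set 3, 261, 275, 284 and 257 CPM in set 2, and 236, 284, 281 and 262 CPM in set 1, and was 0.25 (adjusted p 0.00224) and 0.27 (adjusted p 0.00107) higher in set 3. Leaving out any 1 library gave 4 to 6 members in set 3 against set 1. Against set 2 it gave 2 without maternal, het or wildtype replicate 3 or any library of set 2, and in set 2 against set 1 it was 1 without wildtype replicate 3, maternal, paternal or het replicate 2, or maternal or het replicate 1.

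Of 14 thioester proteins, prophenoloxidases and related genes, 1 rose in set 3 against set 2 and 2 in set 3 against set 1, and leaving out 1 library gave 0 to 2 and 0 to 3. TepIV, a complement-like thioester protein, was 0.15 higher in set 3 than in set 1 (adjusted p 0.0134), with 825, 778, 771 and 852 CPM against 706, 719, 714 and 773 CPM. The het library of set 3 lay just below the wildtype library of set 1, and the call was lost without maternal replicate 3, paternal replicate 1 or het replicate 1.

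Most detoxification genes did not pass in any comparison of sets. Of 79 cytochrome P450 genes, 0 rose and 4 fell in set 3 against set 2, 3 rose and 9 fell in set 3 against set 1, and 1 rose and 1 fell in set 2 against set 1, where 0.838, 2.77 and 0.165% of all genes were lower. The median log2 difference of the list was -0.02, -0.00 and 0.02. Cyp6w1 (FBgn0033065, 2R, 2061189 to 2062936, plus strand) had 92.2, 95.9, 101 and 112 CPM in set 3, 132, 125, 119 and 135 CPM in set 2, and 132, 126, 128 and 152 CPM in set 1. All of set 3 lay below the rest, and the log2 difference was -0.35 (adjusted p 6.99e-05) from set 2 and -0.42 (adjusted p 1.18e-05) from set 1. Cyp6a2, known for its part in DDT resistance, had 139, 136, 142 and 147 CPM in set 3, 157, 165, 164 and 168 CPM in set 2, and 176, 169, 164 and 178 CPM in set 1. It was -0.22 (adjusted p 0.0017) and -0.28 (adjusted p 0.000118) against sets 2 and 1 with no overlap, and it overlaps Epac. Cyp6a23 had 245, 232, 226 and 256 CPM in set 3, 267, 306, 278 and 322 CPM in set 2, and 273, 303, 314 and 313 CPM in set 1, with differences of -0.29 (adjusted p 0.00164) and -0.33 (adjusted p 0.000481). The calls of these 3 genes held without any 1 library. The number of P450 genes called did not. Between sets 3 and 1 it was 5 without het replicate 3 and 6 without each other library of set 3, without paternal replicate 1 or without het replicate 1. Between sets 3 and 2 it was 14 without maternal replicate 1 and 9 without wildtype replicate 1. Between sets 2 and 1 it was 0 without het replicate 2, 4 without wildtype replicate 1, and 1 without paternal, het or wildtype replicate 3, maternal or paternal replicate 2, or maternal, paternal or het replicate 1.

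Of 64 glutathione S-transferases and UDP-glycosyltransferases, 0 rose and 3 fell in set 3 against set 2. In set 3 against set 1, 2 rose and 3 fell, and in set 2 against set 1, 2 rose. Over all genes 0.838% fell in set 3 against set 2, and 3.11% rose and 2.77% fell in set 3 against set 1. In set 2 against set 1, 0.619% of all genes rose. The 2 members that rose in set 3 against set 1 were near the share over all genes. GstE3, an epsilon-class glutathione S-transferase, had 155, 152, 143 and 154 CPM in set 3, 187, 197, 184 and 198 CPM in set 2, and 182, 176, 174 and 166 CPM in set 1. The sets did not overlap. Set 3 was lowest, by -0.34 from set 2 (adjusted p 1.99e-05) and -0.21 from set 1 (adjusted p 0.00326). Its relative GstE1 was -0.33 from set 1 (adjusted p 0.00327), with 16.8, 15.6, 16.3 and 16.2 CPM in set 3 against 20.8, 19.7, 21.3 and 19.8 CPM in set 1. Ugt37b1, a UDP-glycosyltransferase, followed both set and genotype. It had 48.8, 49.5, 46.9 and 60.5 CPM in set 3, 50.8, 49.9, 52.9 and 65.3 CPM in set 2, and 40.1, 40.5, 40.7 and 52.1 CPM in set 1. The wildtype library was the highest of each set, and set 1 was the lowest set in every group. The difference was 0.34 for set 2 against set 1 (adjusted p 0.000593) and 0.25 for set 3 against set 1 (adjusted p 0.00196). Members called in set 3 against set 1 numbered 3 without maternal, het or wildtype replicate 3 or paternal or het replicate 1. Against set 2 they numbered 1 without het or wildtype replicate 3 or het or wildtype replicate 2, and 6 without maternal replicate 1. Set 2 against set 1 had 1 called without paternal or het replicate 3, any library of set 2, or paternal or het replicate 1.

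Of 30 genes of ecdysone and juvenile hormone action, 0 rose and 3 fell in set 3 against set 2, 3 rose and 4 fell in set 3 against set 1, and 1 rose and 1 fell in set 2 against set 1. Jheh1, a juvenile hormone epoxide hydrolase that degrades the hormone, had 164, 163, 168 and 185 CPM in set 3, 204, 197, 192 and 210 CPM in set 2, and 221, 209, 207 and 226 CPM in set 1. Set 3 lay below the rest, by -0.24 from set 2 (adjusted p 0.000478) and -0.35 from set 1 (adjusted p 1.18e-05). Jhe, the esterase that also degrades juvenile hormone, had 13.6, 12.5, 12.3 and 12.2 CPM in set 3, 12.2, 11.5, 11.9 and 10.2 CPM in set 2, and 7.34, 9.27, 8.34 and 9.30 CPM in set 1. It was 0.56 higher in set 3 than in set 1 (SE 0.0861, adjusted p 0.000994). Hr38, the nuclear receptor known to rise with neuronal activity, had 5.82, 5.60, 5.70 and 5.98 CPM in set 3, 7.21, 5.66, 7.44 and 5.27 CPM in set 2, and 7.51, 9.69, 9.79 and 10.8 CPM in set 1, and was -0.71 in set 3 against set 1 (adjusted p 0.00284). It overlaps CG2617. Eip71CD, now MsrA, an ecdysone-induced enzyme that repairs oxidised methionine, had 48.2, 50.4, 49.0 and 53.7 CPM in set 3, 74.6, 69.2, 67.7 and 68.9 CPM in set 2, and 67.9, 64.9, 62.2 and 60.4 CPM in set 1. It was -0.48 (adjusted p 6.43e-06) and -0.34 (adjusted p 0.000321) in set 3 against sets 2 and 1. The calls of set 3 against set 1 in these 4 genes held without any 1 library. The list's count in that comparison was 4 without maternal, paternal or wildtype replicate 3, het replicate 2, or paternal or het replicate 1. Between sets 2 and 1 it was 0 without paternal or het replicate 3, 2 or 1, and 1 without maternal or wildtype replicate 2 or maternal replicate 1.

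**Figure D5:**
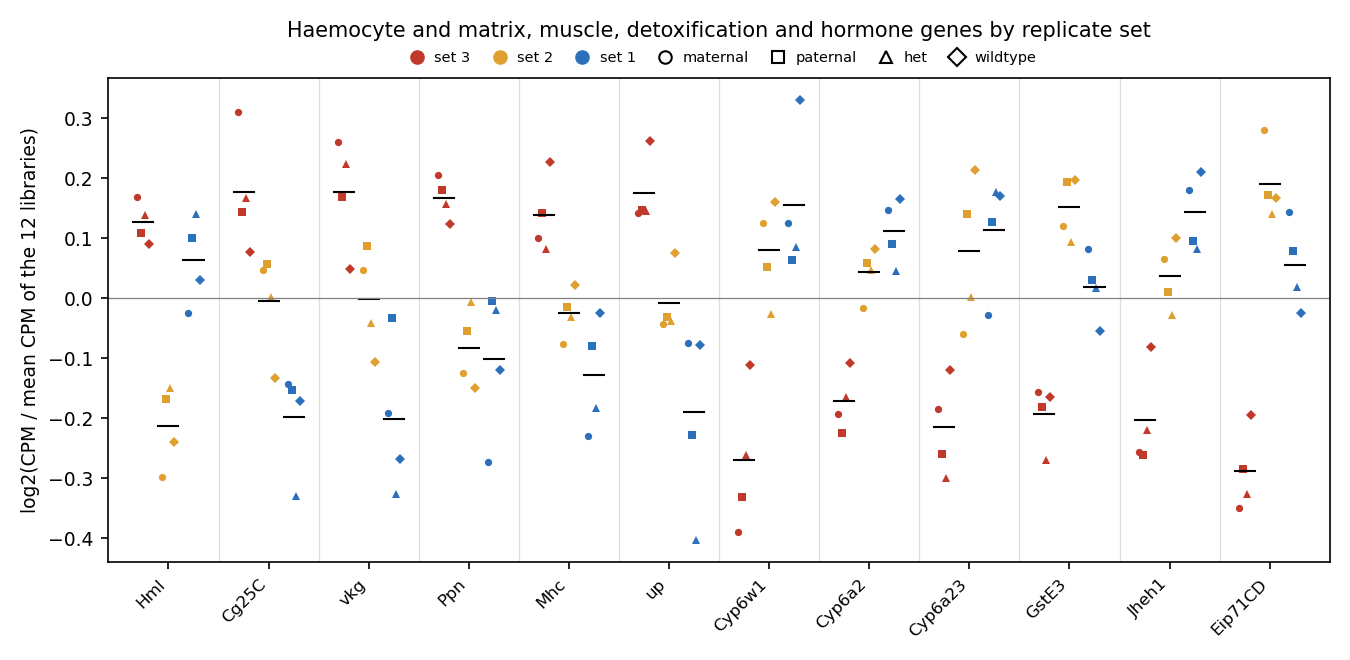
Level of haemocyte and matrix, muscle, detoxification and hormone genes in each of the 12 libraries, as log2 of CPM over the gene's mean CPM, with set 3, set 2 and set 1 from left to right, symbols for groups and lines at the set means. Cyp6w1 sits lowest in set 3 (92.2 to 112 CPM, against 119 to 152 CPM in the 8 other libraries).

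Stress and metal genes gave few calls, although in these short lists some of the shares called lay above those over all genes. Of 24 heat shock proteins and chaperones, 2 fell in set 3 against set 2, and 1 rose and 2 fell in set 3 against set 1, with 1 to 4 and 1 to 3 called when 1 library was left out. Hsp22, a mitochondrial small heat shock protein known to rise with age, had 59.7, 63.2, 63.6 and 67.4 CPM in set 3, 76.1, 73.5, 72.9 and 78.0 CPM in set 2, and 72.5, 67.4, 68.6 and 71.2 CPM in set 1. It was -0.24 in set 3 against set 2 (adjusted p 0.00202) with no overlap, and it overlaps Hsp67Bb. Of 29 metallothioneins, ferritins and metal transporters, 1 fell in set 3 against set 2 and 3 rose in set 3 against set 1, with 0 to 4 and 1 to 5 called when 1 library was left out. Ctr1B, a copper importer of the gut, had 144, 147, 153 and 154 CPM in set 3, 134, 138, 133 and 139 CPM in set 2, and 134, 135, 126 and 119 CPM in set 1, and was 0.22 higher in set 3 than in set 1 (adjusted p 0.00533). It overlaps Poxm.

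Of 20 genes of fatty acid and triglyceride synthesis, 0 rose and 1 fell in set 3 against set 2, 3 rose and 1 fell in set 3 against set 1, and 1 rose in set 2 against set 1. The gene desat1, a fatty acid desaturase, had 1978.1, 1816.2, 1873.8 and 2055.7 CPM in set 3, 2270.4, 2351.4, 2297.8 and 2404.1 CPM in set 2, and 2176.0, 2228.4, 2223.3 and 2531.5 CPM in set 1. Set 3 lay below all other libraries, by -0.27 from set 2 (adjusted p 0.00017) and -0.24 from set 1 (adjusted p 0.000481). ATPCL, the ATP citrate lyase that supplies acetyl-CoA for lipid synthesis, had 902, 864, 845 and 854 CPM in set 3, 766, 834, 784 and 828 CPM in set 2, and 731, 776, 755 and 768 CPM in set 1. It was 0.19 higher in set 3 than in set 1 (adjusted p 0.00388), opposite to desat1, and it overlaps CG8320 and CG8370. Both genes' calls in set 3 against set 1 held without any 1 library.

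AKH signalling and fat mobilisation, the pathway of the mutated receptor, had 1 member lower in each comparison of 12 tested, which was AkhR in set 2 against set 1 and dob in the other comparisons. The gene dob, a lipase of the brummer family, had 14.9, 14.4, 14.4 and 17.8 CPM in set 3, 20.3, 20.2, 19.5 and 16.8 CPM in set 2, and 21.9, 19.7, 19.3 and 19 CPM in set 1. It was -0.38 in set 3 against set 1 (adjusted p 0.0113), a call lost without maternal, paternal or het replicate 3 or het replicate 1. Against set 2 it was -0.32 (adjusted p 0.0453), lost without maternal, paternal or het replicate 3, maternal, paternal or het replicate 2, or paternal or het replicate 1. Of 17 glycolysis genes, 2 rose in set 3 against set 2, and 2 rose in set 3 against set 1, with 1 to 4 and 0 to 2 called when 1 library was left out. Gpdh, glycerol-3-phosphate dehydrogenase, had 743, 674, 683 and 507 CPM in set 3, 557, 593, 542 and 467 CPM in set 2, and 625, 636, 620 and 440 CPM in set 1. The wildtype library was the lowest of each set, and within every group set 3 was the highest, by 0.26 over set 2 (adjusted p 0.00276).

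Of 10 fat body secreted proteins, 2 fell in set 3 against set 2, 1 rose and 1 fell in set 3 against set 1, and 1 rose in set 2 against set 1. The gene fit, a satiety signal made by the fat body, had 122.8, 105, 103 and 116 CPM in set 3, 156, 141, 138 and 130 CPM in set 2, and 108, 117, 113 and 104 CPM in set 1. All of set 2 lay above the other libraries. It was -0.34 in set 3 against set 2 (adjusted p 0.00355) and 0.35 in set 2 against set 1 (adjusted p 0.00876), a call lost without het replicate 2. It overlaps CG31465. The gene to, takeout, a clock-regulated protein that acts in feeding, had 95.4, 95.0, 91.6 and 101 CPM in set 3, 111, 113, 111 and 119 CPM in set 2, and 108, 107, 109 and 108 CPM in set 1. Set 3 was below both others, by -0.25 from set 2 (adjusted p 0.000459). Lsp2, a larval storage protein still made in adults, had 1148.0, 905, 959 and 1256.2 CPM in set 3, 733, 716, 705 and 692 CPM in set 2, and 861, 750, 761 and 668 CPM in set 1. All of set 3 was above the rest, and the difference was 0.49 from set 1 (adjusted p 0.0477), while that of 0.58 from set 2 did not pass (adjusted p 0.0546). The call was lost without maternal or het replicate 3, any library of set 2, or maternal, paternal or het replicate 1.

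Few genes of mitochondria and ribosomes passed between sets. Of 90 cytosolic ribosomal protein genes 1 was lower in set 3 against set 2 and 1 in set 3 against set 1, and of 73 mitochondrial ribosomal protein genes 0 passed in edgeR's quasi-likelihood test, with 1, 5 and 1 at an unadjusted p under 0.05 in set 3 against set 2, set 3 against set 1 and set 2 against set 1 and 0 called by DESeq2 or limma-trend. The cytosolic list had 83 of 90 log2 differences below 0 in set 3 against set 2 and 85 in set 3 against set 1, with medians of -0.05 and -0.06 and with 12 and 20 genes at an unadjusted p under 0.05. Without wildtype replicate 1, 16 cytosolic ribosomal protein genes passed in set 3 against set 1, and without maternal replicate 1, 7 passed in set 3 against set 2. Of 11 mitochondrially encoded genes, mt:CoII, a subunit of cytochrome oxidase, was -0.26 in set 3 against set 2 (adjusted p 0.00122). It had 1287.6, 996, 1156.4 and 1089.8 CPM in set 3, 1415.0, 1207.0, 1350.6 and 1434.3 CPM in set 2, and 1536.2, 1116.8, 1255.2 and 1286.8 CPM in set 1, and set 3 was the lowest set in all 4 groups.

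Of 29 muscle contractile genes, 2 rose and 1 fell in set 3 against set 2, 6 rose and 0 fell in set 3 against set 1, and 0 passed in set 2 against set 1 by edgeR's quasi-likelihood test, with 4 at an unadjusted p under 0.05, 1 called by DESeq2 and 0 by limma-trend. The median log2 difference of the list was 0.06, 0.08 and 0.04. Mhc, the muscle myosin heavy chain, had 1404.3, 1446.2, 1386.5 and 1533.5 CPM in set 3, 1242.7, 1297.6, 1282.8 and 1331.1 CPM in set 2, and 1117.2, 1239.4, 1153.9 and 1289.0 CPM in set 1. All of set 3 lay above the rest, and it was 0.27 higher than set 1 (adjusted p 9.6e-05). The gene up, troponin T, had 565, 567, 566 and 614 CPM in set 3, 497, 501, 499 and 539 CPM in set 2, and 486, 437, 387 and 485 CPM in set 1. The sets did not overlap, and the difference of set 3 from set 1 was 0.37 (adjusted p 0.000116). Both calls held without any 1 library. Muscle genes called in set 3 against set 1 numbered 3 without maternal replicate 3. Against set 2 they numbered 0 without paternal replicate 2, 1 without paternal or het replicate 3 or wildtype replicate 2, 6 without wildtype replicate 1 and 7 without maternal replicate 1.

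Of 47 testis and sperm genes, 9 fell and 0 rose in set 3 against set 1, and 0 passed in set 3 against set 2 and in set 2 against set 1 by edgeR's quasi-likelihood test, DESeq2 or limma-trend, with 4 and 15 at an unadjusted p under 0.05. The median of the list was -0.03, -0.09 and -0.06 in set 3 against set 2, set 3 against set 1 and set 2 against set 1, and its summed level was 14906 ± 485, 15055 ± 521 and 15738 ± 599 CPM in sets 3, 2 and 1 (SD, n = 4 each). Mst77F, a linker-histone-like protein of sperm chromatin, had 431, 445, 436 and 433 CPM in set 3, 477, 461, 456 and 464 CPM in set 2, and 506, 493, 485 and 476 CPM in set 1. Set 3 lay below both other sets, and the difference from set 1 was -0.17 (adjusted p 0.00533) in every fit without 1 library. It overlaps Pka-R1. Mst87F, a protein of the sperm tail, had 397, 401, 405 and 384 CPM in set 3, 440, 423, 438 and 415 CPM in set 2, and 493, 431, 455 and 415 CPM in set 1, and was -0.17 in set 3 against set 1 (adjusted p 0.0102), lost without maternal replicate 3 or het replicate 1. Sperm genes called in set 3 against set 1 numbered 1 without maternal replicate 3 or het replicate 1, 2 without het replicate 3 or paternal replicate 1, and 3 without paternal replicate 3. It was 4 without wildtype replicate 3 or het replicate 2 and 5 without paternal replicate 2. Against set 2, 3 passed without maternal replicate 1.

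Of 58 accessory gland genes, 1 fell in set 3 against set 2 and 1 in set 3 against set 1. In set 2 against set 1, 1 rose. Over all genes these shares were 0.838% and 2.77% lower and 0.619% higher. Between groups 12 of the 58 were called, where the share over all genes was 1.57%. Sfp26Ad, a seminal fluid protein, had 172, 173, 167 and 244 CPM in set 3, 204, 186, 188 and 264 CPM in set 2, and 185, 170, 160 and 242 CPM in set 1. The wildtype library was the highest of every set, and set 2 was the highest set in every group, by -0.16 in set 3 against set 2 (adjusted p 0.0239). That call was lost without any 1 library of set 3, without maternal, paternal or het replicate 2, or without paternal replicate 1. Without maternal replicate 1 the count of the list was 11 in set 3 against set 2 and 7 in set 2 against set 1, and leaving out wildtype replicate 1 gave 4 in either comparison with set 3.

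Of 29 photoreceptor genes, measured in whole flies, 1 rose and 1 fell in set 3 against set 2. In set 3 against set 1, 4 rose, and in set 2 against set 1, 1 rose. The gene that rose in set 3 against set 2 was ninaD, whose site of action is not the eye alone. The gene ninaD, a scavenger receptor that takes up dietary carotenoids for visual pigment and acts in the gut, had 97.5, 107, 118 and 105 CPM in set 3, 71.7, 71.7, 79.6 and 90.9 CPM in set 2, and 74.2, 78.8, 78.9 and 84.3 CPM in set 1. Set 3 lay above the rest, by 0.45 over set 2 (adjusted p 6.99e-05) and 0.43 over set 1 (adjusted p 0.000116). The gene trpl, a light-gated channel of the photoreceptor, had 222, 221, 216 and 249 CPM in set 3, 206, 211, 206 and 235 CPM in set 2, and 178, 192, 187 and 203 CPM in set 1, and was 0.25 higher in set 3 than in set 1 (adjusted p 0.000166). It overlaps CG1690. Members of this list called in set 3 against set 1 numbered 2 without any 1 library of set 3 or paternal replicate 1. They numbered 7 without wildtype replicate 1. Leaving out 1 library gave 1 to 3 in set 3 against set 2 and 0 to 2 in set 2 against set 1.

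Of 20 circadian clock genes, 1 rose and 1 fell in set 3 against set 2. Against set 1, 6 rose and 1 fell in set 3. The gene that fell in both comparisons was to, takeout, a clock-regulated gene also counted among the fat body proteins. In set 2 against set 1, 0 passed by edgeR's quasi-likelihood test, DESeq2 or limma-trend, with 3 at an unadjusted p under 0.05. The clock gene per, period, had 20.5, 21.6, 22.3 and 20.5 CPM in set 3, 18.7, 17.8, 16.5 and 16 CPM in set 2, and 18.2, 18.6, 18.1 and 16.9 CPM in set 1. Set 3 lay above the rest, by 0.30 over set 2 (adjusted p 0.00759, lost without het replicate 3 or het replicate 2) and 0.24 over set 1 (adjusted p 0.0196, lost without paternal, het or wildtype replicate 3 or paternal or het replicate 1). The hour of freezing is not given in the labels, and its part was not tested. Clock genes called in set 3 against set 1 numbered 1 without het replicate 1, 2 without maternal, paternal or wildtype replicate 3, 3 without het replicate 3 and 4 without paternal replicate 1, and those called in set 3 against set 2 numbered 1 without het replicate 3 or 2 and 5 without maternal replicate 1.

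Set 2 had leading genes of its own. Smvt, a sodium-dependent vitamin transporter, had 63.9, 75.7, 68.0 and 65.3 CPM in set 3, 91.3, 108, 101 and 95.7 CPM in set 2, and 81.9, 76.8, 81.7 and 72.9 CPM in set 1. All of set 2 lay above the rest, and the log2 difference was -0.53 for set 3 against set 2 (adjusted p 2.73e-06) and 0.33 for set 2 against set 1 (adjusted p 0.00202). CG8112, annotated as a sterol acyltransferase, had 22.8, 18.6, 19 and 22.1 CPM in set 3, 30.9, 32.2, 31.4 and 39.6 CPM in set 2, and 24.5, 24.4, 27.2 and 30.6 CPM in set 1. It was -0.70 in set 3 against set 2 (adjusted p 3.31e-06) and overlaps Cks85A. CG9837 had 17.5, 15.9, 15.5 and 22.3 CPM in set 3, 25.7, 30.7, 24.9 and 29.3 CPM in set 2, and 20.2, 21.2, 19.4 and 22.0 CPM in set 1, and was -0.64 in set 3 against set 2 (adjusted p 4.06e-05). In all 3 genes set 2 lay above every library of the other sets, and the calls of set 3 against set 2 held without any 1 library.

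Set 1 was set apart by other genes. CG8708, a glycosyltransferase, had 111, 120, 120 and 102 CPM in set 3, 93.2, 89.6, 102 and 98.9 CPM in set 2, and 76.2, 79.0, 73.1 and 67.7 CPM in set 1. Set 1 lay below the rest, and the gene was 0.61 higher in set 3 (adjusted p 6.66e-06) and 0.38 higher in set 2 (adjusted p 0.00284). CG17386, now Achl, had 20.6, 20.1, 17.9 and 22.5 CPM in set 3, 18.7, 19.9, 19.3 and 18.1 CPM in set 2, and 13.1, 14.4, 13.5 and 14.8 CPM in set 1, and was 0.45 higher in set 2 than in set 1 (adjusted p 0.00385). CG2663, a lipid-binding protein of the CRAL-TRIO family, had 17.9, 18.1, 16.8 and 18.8 CPM in set 3, 21.5, 20, 19.6 and 18.2 CPM in set 2, and 14.7, 13.8, 14.6 and 14.1 CPM in set 1, a difference of 0.47 for set 2 against set 1 (adjusted p 0.00114). Among genes of low level, CG11741 had the largest rise in set 3 against set 1, at 1.09 (SE 0.258, adjusted p 0.0214), with 2.06, 1.90, 2.19 and 2.45 CPM against 0.626, 1.21, 0.861 and 1.28 CPM. It was lost without maternal, het or wildtype replicate 3 or het replicate 1.

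Whether sets differed alike in wildtype and in AKHR +/- flies was tested by adding terms to the fit, a test chosen after the data were seen. It left 4 residual degrees of freedom, and 16 genes passed an adjusted p of 0.05 in edgeR's quasi-likelihood test, with 702 at an unadjusted p under 0.05. LKR, the first enzyme of lysine breakdown, had 81.6, 72.2, 69.3 and 71.2 CPM in set 3, 70.0, 65.8, 65.1 and 49.9 CPM in set 2, and 42.3, 47.2, 41.3 and 61.1 CPM in set 1 (adjusted p 0.0037). Set 2 was above set 1 in the AKHR +/- groups and below it in wildtype. Thor, the translation repressor 4E-BP, had 280, 252, 278 and 293 CPM in set 3, 316, 296, 307 and 230 CPM in set 2, and 268, 259, 248 and 272 CPM in set 1 (adjusted p 0.0099), and wildtype replicate 2 was again the library on the other side. RNaseMRP:RNA, the RNA of a small nucleolar ribonuclease, had 5.91 CPM in wildtype replicate 2 (adjusted p 0.000567). The other 11 libraries had 0.368 to 2.08 CPM. RNaseP:RNA, snoRNA:Or-CD2 and snRNA:7SK, also among the 16, were likewise highest in wildtype replicate 2, at 9.19, 5.32 and 5.48 CPM. Since each set holds 1 wildtype library, this contrast cannot be told apart from single libraries that stand alone.

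Further lists held calls mostly in set 3 against set 1, where 3.11% of all genes were higher and 2.77% lower. In that comparison 4 of 25 beta-oxidation genes rose, 3 of 12 trehalose and glycogen genes rose and 1 fell, 3 of 26 neuronal genes rose, 2 of 47 chemoreceptors rose, 2 of 17 secretory pathway genes rose, 1 of 19 insulin pathway genes rose and 1 of 29 female germline genes rose. Of 34 nuclear ATP synthase and cytochrome oxidase genes 5 fell, of 41 neuropeptides 2, and of 46 proteasome subunits 1. Antioxidant enzymes (21) and cuticle proteins (45) had 1 member higher and 1 lower each, and mucins and peritrophic matrix genes (20) had 1 higher. The counts of chemoreceptors, female germline genes, cuticle proteins and proteasome subunits were near the shares over all genes. With 1 library left out the number called was 1 to 4 for beta-oxidation, 0 to 5 for trehalose and glycogen, 0 to 8 for neuronal genes and 0 to 7 for ATP synthase and cytochrome oxidase. CG6904, glycogen synthase, had 333, 314, 309 and 314 CPM in set 3, 260, 286, 276 and 298 CPM in set 2, and 268, 281, 268 and 295 CPM in set 1. All of set 3 lay above the rest, by 0.18 over set 2 (adjusted p 0.0192) and 0.19 over set 1 (adjusted p 0.00995). The first call was lost without maternal, paternal or het replicate 3 or 2, and the second without maternal replicate 3 or het replicate 1. The gene ple, tyrosine hydroxylase of dopamine synthesis, was 0.26 higher in set 3 than in set 1 (adjusted p 0.0388), lost without any library of set 3, paternal or het replicate 2, or paternal or het replicate 1.

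Several further lists had 0 members past the threshold in every comparison of sets by edgeR's quasi-likelihood test and by limma-trend. They were the 3 yolk protein genes, 9 eggshell genes, 7 Y-linked fertility genes, 8 genes of male dosage compensation, 42 odorant-binding proteins, 38 DNA replication and cell cycle genes and 5 histone genes. Members of the first 3 lists were low, with mean levels of 1.62 to 11.2, 0.489 to 13.2 and 3.31 to 15.1 CPM. The lack of calls there says little about those programmes. At an unadjusted p under 0.05 they had 0, 1, 0, 0, 9, 4 and 0 members in set 3 against set 2, 0, 1, 0, 4, 6, 3 and 0 in set 3 against set 1, and 1, 1, 1, 0, 5, 3 and 0 in set 2 against set 1. DESeq2 called 1 odorant-binding protein in set 3 against set 1.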

How the data were processed

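Per the labels' protocols, polyA RNA of whole flies was made into TruSeq libraries. Reads were aligned to dm3, and the submitters' processing notes name Novoalign and DESeq without versions. The deposited tables give, per the file headers, read counts per gene and FPKM for each library, made by the authors. No source used here states whether counting used strand. The tables were joined on gene ID: 13040 genes were listed, of which 58 not present for all 12 libraries were left out, and shared columns had 0 disagreements.

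Counts were fitted with edgeR 4.0.16 (R 4.3.3): filterByExpr with a minimum count of 10 left 12762 genes, scaled by TMM, with set and group in 1 model of all 12 libraries and an adjusted p of 0.05 as threshold. FPKM served only to compare levels between genes. Alternatives were DESeq2 1.42.0, limma 3.58.1 (limma-trend), other scalings and filters, no group term, only the 2 sets compared, and leaving out a library or group. Depth was 17212029 to 21370713 reads, and the biological coefficient of variation was 0.0449.

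Named genes were, per comparison, up to 10 largest rises and 10 largest falls past the threshold (averaging 1 CPM or more, same direction in all 4 groups), and up to 3 members of each list by smallest p. For lists with none passing, up to 2 members of highest level were taken. The sets, members and lists were chosen with earlier results of these data known. Of the listed genes, 12473 matched a current name, and 5302 overlap another listed gene. The sets were read from the title numbers. The design text says that each experimental replicate gave 1 set of samples, but no label states that the number marks it. Same-numbered libraries had a mean correlation of deviations of 0.123.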

Additional observations from a re-analysis of the deposited data

Results flagged for a closer look

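In 18 of 240 groups of 4 libraries examined, 1 library stood apart from the other 3 of its set by Dixon's criterion at the 95% level, which chance meets in about 1 of 20.

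Wildtype libraries were 12 of the 18. In set 3, wildtype replicate 3 stood apart for the protease homolog CG6639 (31.0 CPM, others 0.400 to 0.768), troponin T gene up (614 CPM, others 565 to 567), AkhR, listed as GRHR (84.8 CPM, others 80.4 to 81.1), the lipase dob (17.8 CPM, others 14.4 to 14.9) and the seminal protein Sfp26Ad (244 CPM, others 167 to 173). In set 2, wildtype replicate 2 stood apart for CG8112 (39.6 CPM, others 30.9 to 32.2) and up (539 CPM, others 497 to 501). In set 1, wildtype replicate 1 stood apart for tobi (2002 CPM, others 1830 to 1850), the prophenoloxidase PO45 (129 CPM, others 155 to 157), Ugt37b1 (52.1 CPM, others 40.1 to 40.7), desat1 (2532 CPM, others 2176 to 2228) and Gpdh (440 CPM, others 620 to 636). Wildtype is also the 1 group without the AKHR mutation, so within a single set library and genotype cannot be told apart. Across sets, the wildtype library was the lowest of every set for Gpdh (507, 467 and 440 CPM in sets 3, 2 and 1). It was the highest of every set for Ugt37b1, Sfp26Ad, desat1 and AkhR. Gpdh had an adjusted p of 0.000121 between groups in edgeR's quasi-likelihood test. For CG6639 the wildtype library was high in set 3 alone.

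Among AKHR +/- libraries, paternal replicate 3 was low for the glucocerebrosidase CG31148 (82.8 CPM, others 90.7 to 91.2) and the protease Jon74E (340 CPM, others 375 to 381). Paternal replicate 2 was high for the metallothionein MtnE (38.4 CPM, others 29.8 to 30.3), and paternal replicate 1 for the carnitine palmitoyltransferase whd (311 CPM, others 299 to 301). Het replicate 1 was low for the collagen Cg25C (128 CPM, others 142 to 145). Maternal replicate 1 was high in the summed level of cytosolic ribosomal proteins (64424 CPM, others 56337 to 57346).

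Differences between sets differed between wildtype and AKHR +/- libraries for 16 genes in edgeR's quasi-likelihood test with added terms, a test chosen after the data were seen.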

How the results depend on the processing

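Set 3 against set 1 called 751 genes. That count was 350 without the group term, 63 without the het libraries, 145 without the paternal libraries and 313 with only sets 3 and 1. Set 3 against set 2 called 217, and 123 without the group term, 60 without the het, 86 without the paternal and 514 without the maternal libraries, and 850 with only sets 3 and 2. Set 2 against set 1 called 100, and 46 without the group term, 186 without the wildtype, 2 without the het, 26 without the paternal and 181 without the maternal libraries, and 63 with only sets 2 and 1. The test over all sets called 551, and 279 without the group term, 89 without the het and 138 without the paternal libraries. Leaving out 1 library gave 211 to 1280, 108 to 841, 18 to 200 and 240 to 1021 genes in these 4 tests. Between groups, 201 genes were called with the replicate block and 57 with no replicate block. Fits that leave out libraries have fewer samples by construction, and beyond that the cause was not tested.

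Of 98, 61 and 38 named genes in set 3 against set 1, set 3 against set 2 and set 2 against set 1, 37, 30 and 9 were called in every fit without 1 library, 21, 25 and 1 under every alternative run, and 0 changed direction. Each set holds 4 libraries, which limits the precision of small differences, and a median shift under the other scalings stayed below 0.01 on the log2 scale.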
